A study of Mus musculus with 3 samples.

Results

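The germ layer and trophoblast markers described here are 33 genes, each matched to 1 of the 55536 Ensembl genes in the tables. They comprise 7 neuroectoderm genes, 11 genes of mesoderm and the primitive streak, 6 endoderm genes and 9 trophoblast genes, and they were chosen by name as known markers of these lineages, with earlier results of these data known. Total RNA was sequenced from F121-9, an established hybrid line of mouse embryonic stem (ES) cells whose parents were of the Cast and 129 strains. The labels list 3 libraries as biological replicates 1, 2 and 3, all at passage 14 and each started from 400 ng of RNA to which ERCC and SIRV spike-in RNAs were added. No treatment, sex or age is given, so the libraries form 1 group of 1 line and no conditions can be compared. The labels do not say whether the replicates were separate cultures, so a p-value here speaks only of the spread among these libraries, which could be technical.

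ES cells come from the inner cell mass of the blastocyst and can form all tissues of the embryo. In the embryo the epiblast gives rise to neuroectoderm and, through the primitive streak, to mesoderm and definitive endoderm, whereas trophoblast and primitive endoderm separate from it before implantation. Most of the markers encode transcription factors that set these fates, and the others encode cytoskeletal, receptor, adaptor or secreted proteins of the cells that result. In ES cells many genes for developmental transcription factors are known to carry CpG-rich promoters occupied by Polycomb complexes.

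Each library was quantified in 2 ways by the authors. The gene tables and a first set of transcript tables, laid out as RSEM output, came from reads aligned to the transcriptome. A second set of transcript tables, laid out as kallisto output, came straight from the reads. They are called RSEM-style and kallisto-style. Estimated counts are reads shared out over genes or transcripts, 9575750 to 10425600 per library over genes in the RSEM-style tables and 17353100 to 18799000 in the kallisto-style ones. TPM, a share of all transcripts with a common total for every library, corrects for transcript length and is the scale used to compare genes. Values are RSEM-style unless stated, as mean ± SD of n = 3 libraries. A marker was called expressed where each of the 3 libraries reached 1 TPM, zero with 0 estimated counts in all 3, and low otherwise. Replicate 1 stood apart from the others: a spread beyond counting noise (chi-square test against Poisson) held for 1656 of 13391 genes, for 27 without replicate 1, and for 1464 and 1471 without replicate 2 or 3. All 10 pluripotency genes listed for comparison were expressed, the lowest being Tbx3 at 84.5 ± 9.64 TPM, which matched the ES cell part of the label. The line and its parent strains were not tested. Of 9 fibroblast genes listed as markers of feeder cells, Pdgfrb was expressed at 1.53 ± 0.275 TPM, 4 were low and Col3a1, Postn, Dcn and Lum were at 0 counts. Their summed level ran from 3.26 to 4.43 TPM.

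Of the 33 markers 8 were expressed, 15 were low and 10 were at zero counts. Among the 21951 protein-coding genes 52.3% were expressed, 22.5% were low and 25.2% were at zero. The median level of the markers was 0.163 TPM, against 1.89 TPM for protein-coding genes. The summed level of all markers was 33.75, 29.50 and 32.69 TPM in replicates 1, 2 and 3, which is 0.111% of the summed level of the 10 pluripotency genes, or 1.22% without Dppa5a, which alone makes up 90.9% of that sum. Each lineage had members in all 3 classes, and mesoderm and the primitive streak had a single gene at zero. In bulk RNA, few cells with a high level and many cells with a low level cannot be told apart.

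A zero in the RSEM-style tables was not always a zero in the kallisto-style ones. Neurog2, Olig2, Hand1, Ttr and Prl3d1 had 0 counts in both quantifications of all 3 libraries, as did 16.9% of protein-coding genes. These are a proneural factor, a factor of motor neuron and oligodendrocyte progenitors, a factor of heart and extra-embryonic tissue, the thyroid hormone carrier transthyretin, and placental lactogen 1 of trophoblast giant cells. The other 5 zero markers carried kallisto-style counts, and 4 of them carried under 5 counts in all. In replicates 1, 2 and 3 the kallisto-style counts of Dcx were 0, 2 and 2, Afp had 0, 0 and 2, Plac1 had 1, 0 and 0, and Tpbpa had 0, 2.02 and 0. Elf5 was the exception, with 36.3, 32.8 and 30.7 kallisto-style counts. A count of 0 allows up to 3 counts in a library, which for the 10 zero markers corresponds to 0.106 (Dcx, the longest of them) to 0.619 TPM (Prl3d1). This floor covers counting error only and does not show absence below it.

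**Figure D1:**
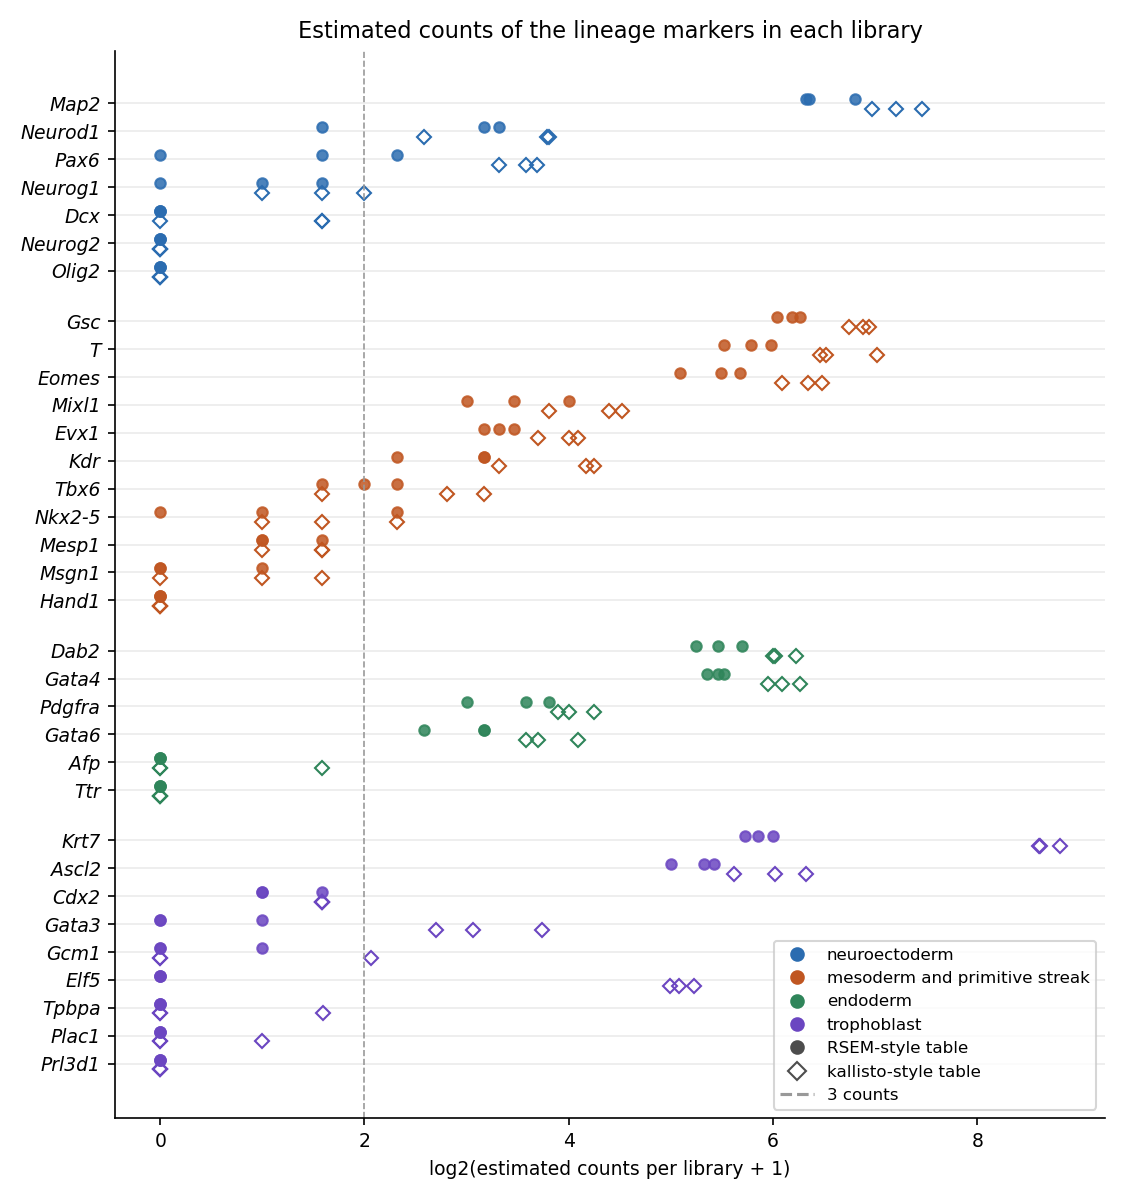
Estimated counts of the 33 markers on a log2(count + 1) axis, grouped by lineage, with 1 point per library and quantification (filled circles RSEM-style, open diamonds kallisto-style) and a dashed line at 3 counts. Neurog2, Olig2, Hand1, Ttr and Prl3d1 lie at 0 in all points, whereas Elf5 lies at 0 in the RSEM-style tables and above 30 counts in the kallisto-style ones.

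The low class joined genes with a handful of reads and genes with a steady low level. Of its 15 members 9 had under 10 estimated counts over the 3 libraries together and 6 had 10 or more, and 9 had a count in each library. Msgn1, Gata3 and Gcm1 rested on 1 count each, for which the exact 95% Poisson interval of the total is 0.0253 to 5.57 counts. Without replicate 1, which held the single count of Gata3 and of Gcm1, 12 markers were at zero.

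Promoter sequence was examined as a property that the choice of markers did not use. RefSeq promoter windows (GRCm38.p6) were matched for 28 of the 33 markers, the others being Gata4, Gata6, Hand1, Mixl1 and Ttr, and the 250 bases before the start site were scored. A window was called CpG-rich with a GC content of at least 50% and a ratio of observed to expected CG pairs of at least 0.6. The windows below are those of the matched markers that were highest in their lineage, or the earliest listed of their lineage at zero in both quantifications, so that expressed and silent markers can be read side by side. No endoderm window is printed, since Gata4 and Ttr, which this rule named, were not matched. The expressed marker Dab2, with 2 CG pairs in the window nearest its gene start, is thus not shown. They run 5′ to 3′ with CG pairs in capitals, and bases past the gene start of the GENCODE M21 annotation are left out.
Gsc, expressed, chr12:104473331-104473486, minus strand: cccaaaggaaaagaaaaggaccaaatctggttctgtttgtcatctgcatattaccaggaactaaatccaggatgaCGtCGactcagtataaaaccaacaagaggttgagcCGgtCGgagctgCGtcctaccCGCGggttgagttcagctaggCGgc
Map2, expressed, chr1:66175079-66175272, plus strand: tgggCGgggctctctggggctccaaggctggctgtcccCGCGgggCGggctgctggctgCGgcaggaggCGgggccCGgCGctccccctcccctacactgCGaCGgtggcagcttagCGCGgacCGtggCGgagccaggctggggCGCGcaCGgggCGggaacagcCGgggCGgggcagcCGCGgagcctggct
Ascl2, expressed, chr7:142969265-142969514, minus strand: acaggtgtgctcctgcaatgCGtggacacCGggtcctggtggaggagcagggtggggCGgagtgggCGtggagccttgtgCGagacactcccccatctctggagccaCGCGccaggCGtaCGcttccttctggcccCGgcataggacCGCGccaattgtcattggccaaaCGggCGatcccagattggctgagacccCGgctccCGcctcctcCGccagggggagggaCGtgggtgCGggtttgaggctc
Neurog2, zero, chr3:127632886-127633134, plus strand: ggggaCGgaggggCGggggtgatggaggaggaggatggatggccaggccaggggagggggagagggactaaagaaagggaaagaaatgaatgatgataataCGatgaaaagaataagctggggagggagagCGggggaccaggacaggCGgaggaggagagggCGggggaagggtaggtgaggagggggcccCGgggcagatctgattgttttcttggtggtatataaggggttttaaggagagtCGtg
Prl3d1, zero, chr13:27093939-27094188, plus strand: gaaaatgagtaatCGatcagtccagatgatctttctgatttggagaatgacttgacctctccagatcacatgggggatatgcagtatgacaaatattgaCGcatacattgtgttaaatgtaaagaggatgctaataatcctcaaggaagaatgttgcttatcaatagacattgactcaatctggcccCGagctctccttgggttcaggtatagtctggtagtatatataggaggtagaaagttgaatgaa

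Within the full window of 250 bases, Map2 had 34 CG pairs, Gsc 22, Ascl2 19, Neurog2 8 and Prl3d1 3, against a median of 10 over 21263 windows of protein-coding genes. The stretches printed for Gsc (156 bases) and Map2 (194 bases) hold 8 and 22 of these pairs, and the rest lie past the annotated gene start. The Prl3d1 window, with 39.2% GC, is nearly free of CG pairs, whereas Neurog2 passed the CpG-rich definition (58.0% GC, ratio 0.713) although the gene had no counts. In all, 12 of the 28 markers had a CpG-rich window, compared with 46.4% of 16417 protein-coding genes counted in the same way, by any of their windows. By class these were 4 of 7 expressed, 6 of 13 low and 2 of 8 zero markers (Neurog2 and Olig2). Among protein-coding genes with a window, 69.8% of the expressed, 31.8% of the low and 4.86% of the zero genes had a CpG-rich one.

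By lineage, the neuroectoderm markers were CpG-rich in 6 of 7 cases, Dcx being the other with 3 CG pairs and 41.6% GC. Trophoblast markers were CpG-rich in 3 of 9 cases (Cdx2, Gata3 and Ascl2), and their median number of CG pairs was 3 against 22 in neuroectoderm. Mesoderm and primitive streak markers were CpG-rich in 2 of 9 cases, Gsc and Kdr. T and Evx1 lay just outside the definition, T with a ratio of 0.594 and Evx1 with 49.6% GC, and so did Krt7 of trophoblast with a ratio of 0.596. Of the 3 endoderm windows Dab2 was counted as CpG-rich through its other annotated start, and the window nearest the gene start had 2 CG pairs. These are counts of letters in the reference, and no methylation or binding was measured here.

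**Figure D2:**
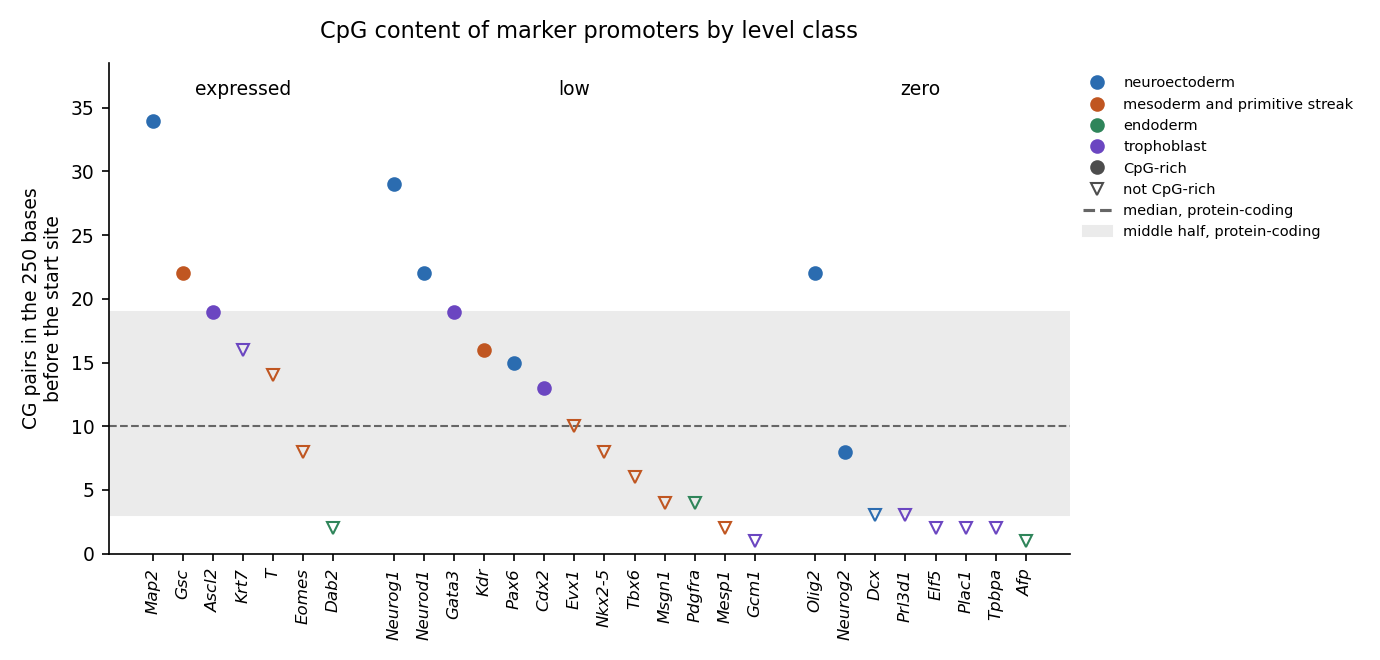
Number of CG pairs in the 250 bases before the start site nearest the gene start (vertical axis) for 28 markers, ordered by level class, with filled circles for CpG-rich windows, open triangles for the others, and the median and middle range of protein-coding windows as a dashed line and a band. Map2 has the most CG pairs (34), and among the zero markers only Olig2 and Neurog2 have CpG-rich windows.

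Mesoderm and primitive streak genes, the longest of the 4 lists, had the highest summed level and included Gsc, the highest marker in the RSEM-style tables. Their median of 0.280 TPM lay below that of the endoderm markers, 0.387 TPM. Gsc encodes goosecoid, a homeodomain factor of the anterior primitive streak and the organizer (chromosome 12, 104471209 to 104473330). It stood at 9.34, 8.38 and 8.97 TPM in replicates 1, 2 and 3, on 76, 65 and 72 counts, a mean of 8.90 ± 0.484 TPM that lies at the 64.0th percentile of protein-coding genes. T encodes brachyury, the T-box factor of the streak and of early mesoderm (chromosome 17, 8434423 to 8442496), and it stood at 6.63, 4.71 and 3.23 TPM on 62, 54 and 45 counts. Its TPM was spread more widely than its counts, as described below. Eomes, a T-box factor of the streak and of trophoblast (chromosome 9, 118478212 to 118486132), stood at 1.29, 1.92 and 2.33 TPM on 33, 44 and 50 counts. Replicate 1 was thus the highest for T and the lowest for Eomes, both in TPM and in counts.

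Among the other mesoderm markers, Mixl1 and Evx1 were low but present in each library. Mixl1, a homeodomain factor of the streak, stood at 0.63, 0.46 and 0.95 TPM on 10, 7 and 15 counts. Evx1, a homeodomain factor of the posterior streak, stood at 0.49, 0.41 and 0.45 TPM on 10, 8 and 9 counts, the narrowest spread in TPM of the markers described as low by library. Kdr, the VEGF receptor of endothelial precursors, had 8, 4 and 8 counts over a long transcript, a mean of 0.157 ± 0.0493 TPM. Tbx6, Nkx2-5, Mesp1 and Msgn1, factors of paraxial mesoderm and of the heart, had 1 to 9 counts in all, and Hand1 had none. Most of the lineage total of 17.6 ± 1.35 TPM therefore came from Gsc and T.

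Of 10 further mesoderm genes that are no members, 3 were expressed, 5 were low and 2 were at zero. Tcf15, a basic helix-loop-helix factor of somites, stood at 25.9 ± 2.03 TPM, the cardiac myosin light chain gene Myl7 at 9.07 ± 2.15 TPM and Snai1, a repressor of epithelial genes, at 1.16 ± 0.130 TPM. Snai1 was low in the kallisto-style tables at 0.869 ± 0.179 TPM. Tcf15 exceeded all 11 mesoderm members.

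In neuroectoderm a single marker was expressed. Map2, a microtubule-associated protein gene of dendrites (chromosome 1, 66175273 to 66442583), stood at 3.58, 2.96 and 4.59 TPM on 111, 79 and 81 counts, so replicate 3 had the highest TPM without the highest count. Neurod1, a differentiation factor of neurons and endocrine cells, stood at 0.47, 0.11 and 0.42 TPM on 9, 2 and 8 counts. Its exons overlap those of Cerkl on the same strand, and 11.2% of the 31-base words of its transcript also occur in other genes, so its few counts are uncertain. Pax6, a factor of eye and forebrain, had 0, 4 and 2 counts, and the proneural factor gene Neurog1 had 2, 1 and 0. Dcx, a microtubule protein gene of migrating neurons, Neurog2 and Olig2 were at zero.

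Of 10 further neuroectoderm genes 3 were expressed, 4 were low and 3 were at zero. Stmn2, a neuronal microtubule regulator, stood at 96.4 ± 1.38 TPM, the neuronal tubulin gene Tubb3 at 10.6 ± 1.88 TPM and Nes, an intermediate filament gene of neural progenitors, at 5.34 ± 0.924 TPM. These 3 encode cytoskeletal proteins or their regulators, as Map2 does. Among the factor genes of this list, Zic1 and Pax3 were at zero and Sox1 and Hes5 were low.

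Endoderm markers were led by Gata4 and Dab2, both expressed in primitive endoderm. Gata4, a zinc finger factor (chromosome 14, 63198922 to 63271692), stood at 1.83, 1.97 and 1.81 TPM on 40, 45 and 43 counts, a narrow range. Dab2, an endocytic adaptor gene (chromosome 15, 6299788 to 6440712), stood at 1.87, 1.25 and 1.45 TPM on 51, 37 and 43 counts, with replicate 1 the highest. Gata6, the partner factor of Gata4, was low at 0.41, 0.23 and 0.46 TPM on 8, 5 and 8 counts. Pdgfra, a receptor of primitive endoderm and mesenchyme, was low at 0.23, 0.54 and 0.45 TPM on 11, 7 and 13 counts, so the library with the fewest counts had the highest TPM. Both products secreted by visceral endoderm and liver, Afp and Ttr, were at zero. The lineage total was 4.17 ± 0.175 TPM.

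Of 13 further endoderm genes 5 were expressed, 7 were low and 1 was at zero. The leading ones encode matrix proteins that parietal endoderm also secretes: Sparc at 80.03 ± 3.34, the laminin gene Lama1 at 33.7 ± 7.82 and the collagen gene Col4a1 at 7.03 ± 1.87 TPM. Amn and the endoderm factor gene Sox17 were the other two, and Sox17 was low in the kallisto-style tables. The definitive endoderm factor gene Foxa2 was low, with counts in replicate 2 alone.

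Trophoblast markers split into a pair at a few TPM and a remainder close to zero. Ascl2, an imprinted basic helix-loop-helix factor of the ectoplacental cone and spongiotrophoblast (chromosome 7, 142966829 to 142969264), stood at 3.79, 3.27 and 3.97 TPM on 39, 31 and 42 counts. Krt7, a keratin of simple epithelia and trophoblast (chromosome 15, 101411043 to 101430313), stood at 1.78, 2.02 and 2.16 TPM on 52, 57 and 63 counts. Cdx2, the homeodomain factor that defines trophectoderm, had 2, 1 and 1 counts, a mean of 0.0867 ± 0.0379 TPM. Gata3, another early trophectoderm factor, and Gcm1, the factor of syncytiotrophoblast, had 1 count each, both in replicate 1. Elf5 of trophoblast stem cells, Plac1, Tpbpa of spongiotrophoblast and Prl3d1 were at zero. Prl3d1 shares 76.1% of its 31-base words with Prl3d2 and Prl3d3, which were also at 0 counts in both quantifications. The part of these shared words in its zero was not tested.

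Of 11 further trophoblast genes 6 were expressed, 2 were low and 3 were at zero. Tfap2c stood at 66.9 ± 4.72, Ets2 at 16.04 ± 1.25 and Tead4 at 10.9 ± 0.467 TPM, each a transcription factor used in trophoblast. The others expressed were the keratin genes Krt8 and Krt18, whose products pair in simple epithelia, and the receptor gene Fgfr2. All of these exceeded Cdx2, Gata3, Gcm1 and Elf5 in TPM, and the 3 factors named exceeded every trophoblast member.

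Ordered by TPM, Gsc stood alone at the top of the markers, since its lowest library (8.38 TPM) was above the highest of T (6.63 TPM). T, Map2 and Ascl2 overlapped between libraries and cannot be ordered. Krt7, Gata4, Eomes and Dab2 overlapped as well, and the highest library of Krt7 (2.16 TPM) and of Eomes (2.33 TPM) lay below the lowest of Ascl2 (3.27 TPM) and of Map2 (2.96 TPM). All 8 lay between the 48.4th and the 64.0th percentile of protein-coding genes, but among the expressed protein-coding genes alone they ran from the 1.98th (Dab2) to the 31.2nd percentile (Gsc). They thus lay in the lower part of the range of genes these cells express, and below the lowest pluripotency gene listed. At a threshold of 2 TPM in place of 1, Gsc, T, Map2 and Ascl2 remained expressed.

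**Figure D3:**
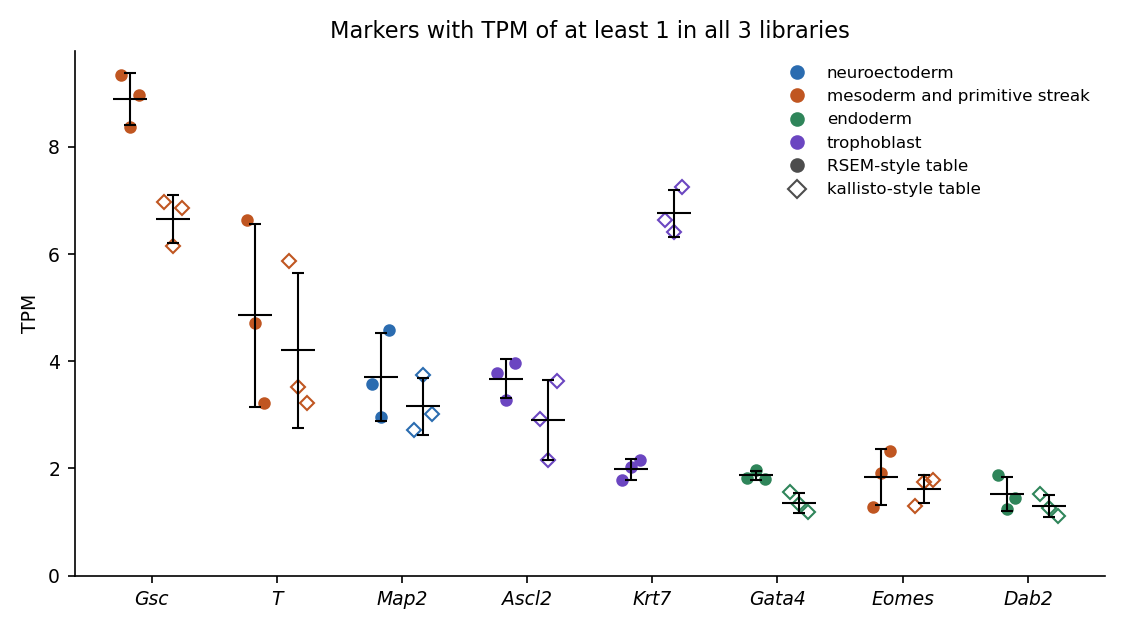
TPM of the 8 expressed markers in each library, replicates 1 to 3 from left to right, with the mean and SD of n = 3 as bars (filled circles RSEM-style, open diamonds kallisto-style). Gsc is highest in the RSEM-style tables with all libraries at 8.38 TPM or more, and Krt7 rises from about 2 TPM there to between 6.40 and 7.25 TPM in the kallisto-style tables.

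None of the expressed markers was called variable between libraries, and by edgeR hardly any gene was. All 8 passed the filter on low counts that the tests need, while the 25 low or zero markers did not, so the test says nothing of those. With edgeR's quasi-likelihood fit and Benjamini-Hochberg adjustment, 0 of the 8 and 0.0373% of 13391 genes were called variable, with 0 of the 8 at an unadjusted p under 0.05 and 0 by limma-voom. By the chi-square test against counting noise 0 of the 8 passed, against 12.4% of all genes, and Eomes came closest with a Benjamini-Hochberg adjusted p of 0.305. With kallisto-style counts 13 markers entered that test and 0 passed, against 2800 of 15934 genes. An unadjusted p under 0.05 was found for 3 of the 13 (T, Ascl2 and Krt7) and for 4427 of the 15934 genes. The 8 markers rest on 31 to 111 counts per library, which limits the precision of these tests.

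Part of the spread in TPM came with short transcripts. T has 3 annotated transcripts, of 2046, 681 and 761 nt. In replicates 1, 2 and 3 the transcript of 2046 nt, T-201, held 3.50, 3.72 and 3.23 TPM, while the shorter pair held 3.13, 0.98 and 0 TPM on 12.7, 4.00 and 0 counts. The coefficient of variation of T was 35.1% with all transcripts and 7.05% without those under 1000 nt, a limit chosen after seeing the data. In the kallisto-style tables it was 34.4% and 20.3%, so there the narrowing was smaller and the same library was highest.

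For Map2 a single transcript of 546 nt, Map2-218, held 0.80, 0.85 and 2.70 TPM on 2.11, 2.12 and 6.97 counts. Without transcripts under 1000 nt the mean of Map2 was 2.26 ± 0.469 in place of 3.71 ± 0.823 TPM, and replicate 3 became the lowest library at 1.89 TPM. In the kallisto-style tables the short transcripts of Map2 were highest in replicate 2, at 2.39 TPM, against 0.50 and 1.33 TPM in replicates 1 and 3. A few counts assigned to a short transcript thus set which library ranked first, and the 2 quantifications did not assign them to the same library.

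**Figure D4:**
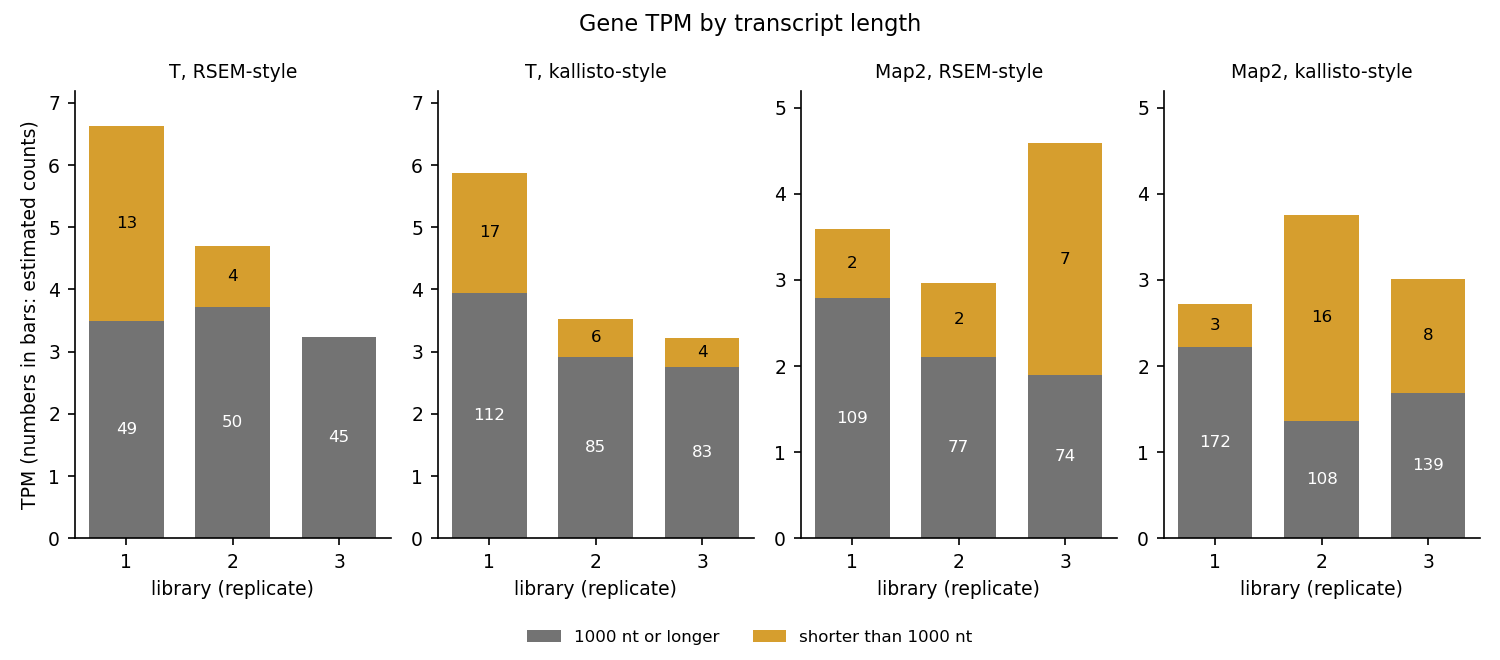
TPM of T and Map2 in each library, divided into transcripts of at least 1000 nt (grey) and shorter ones (yellow), with the estimated counts of each written in the bars, for both quantifications. In the RSEM-style tables the long transcripts of T differ little between libraries (3.23 to 3.72 TPM), and the short ones account for the spread of the total.

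The main isoforms of the expressed markers were mostly the long coding ones. Gsc has 1 annotated transcript. Ascl2-201 took 93.3 ± 6.43% of the Ascl2 TPM, Krt7-201 92.6 ± 3.79% of Krt7, Eomes-201 83.9 ± 16.1% of Eomes and Dab2-202 71.0 ± 7.84% of Dab2. T-201 took 77.3 ± 23.7% of T. In the kallisto-style tables the share of Dab2-202 was lower, at 52.3 ± 3.02%, and that of Krt7-201 higher, at 96.9 ± 1.02%. Gata4 was shared between Gata4-202 (53.6 ± 14.4%) and Gata4-201 (32.99 ± 29.2%), and the kallisto-style tables placed Gata4-201 first at 59.8 ± 14.97%. Map2 was divided over Map2-207 (37.4 ± 19.7%), Map2-218 (36.6 ± 19.5%) and Map2-205 (23.1 ± 8.77%). The spread between libraries is too wide to order the isoforms of Gata4 or of Map2.

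Krt7 was the expressed marker that depended most on the quantification. Its kallisto-style level was 6.64, 6.40 and 7.25 TPM in replicates 1, 2 and 3 on 391, 389 and 447 counts, above all RSEM-style libraries. The difference of log2(TPM + 1), kallisto-style minus RSEM-style, was 1.38 with an SE of 0.0553 (limma, Benjamini-Hochberg adjusted p = 0.000101), higher in 3 of 3 libraries. It was the only call among the 8 markers tested, where a call needs an adjusted p under 0.05 and a difference of at least 1, against 13.1% of 14790 genes and 10.7% called with the kallisto-style value higher. Of 5 marker transcripts tested Krt7-201 alone was called, against 18.9% of 28903 transcripts. In the kallisto-style tables Krt7 stood level with Gsc, at 6.76 ± 0.434 against 6.66 ± 0.445 TPM.

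The other expressed markers were lower in the kallisto-style tables, with log2 differences from -0.37 for Gsc to -0.11 for Eomes, none of them called. The median over all 14790 genes was -0.25, within the range of these markers. This scale understates changes of low genes. With a pseudocount of 0.1 in place of 1 the markers ran from -0.44 for Gata4 to -0.16 for Eomes, and no median over all genes was taken there. Kallisto-style counts exceeded RSEM-style ones for most of the 13919 to 14115 genes with at least 10 RSEM-style counts in a library. Their median ratio was 1.68, and the 5th to 95th percentile ran from 1.41 to 3.14. The ratio for Krt7 was 7.15 ± 0.356, at the 98.3rd percentile. Of the 31-base words of Krt7-201, 3.15% also occur in a total of 3433 other genes, from base 323 to base 4012 of the transcript, which is the 64.5th percentile of protein-coding transcripts (median 0.151%, 75th percentile 10.4%). T-201, Gsc-201 and Ascl2-201 share none. Eomes-201 shares 3.34% with 228 genes, and Eomes had a count ratio of 1.87 ± 0.141, close to the median. The 2 transcripts are not alike in this. Of the 118 shared words of Eomes-201, 89 occur in Gm33460, whereas no gene holds more than 33 of the 128 of Krt7-201. The part of these shared words in the difference was not tested.

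**Figure D5:**
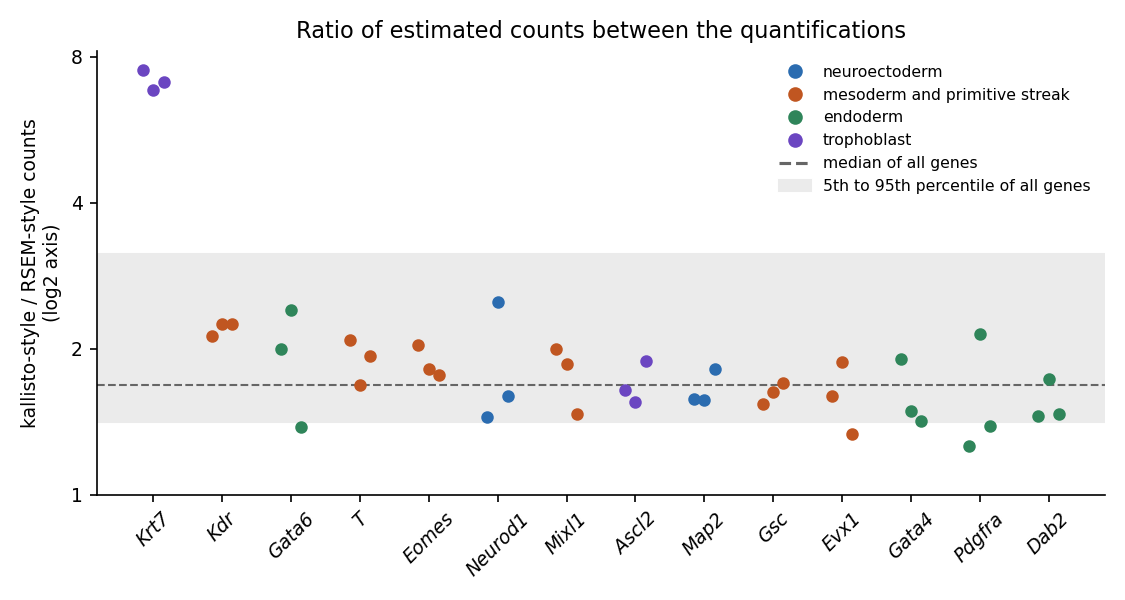
Ratio of kallisto-style to RSEM-style estimated counts (log2 axis) for the 14 markers with 10 or more RSEM-style counts in all, 1 point per library. The dashed line is the median and the band the 5th to 95th percentile of all genes with at least 10 RSEM-style counts in a library. Some of the markers plotted had fewer in a library. Krt7 lies near 7 in all 3 libraries, above the band, and the other markers lie on both sides of the median, a few points just below the band.

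Elf5, Pax6 and Gata3 also had kallisto-style counts that the RSEM-style tables lacked. All of the Elf5 counts were on Elf5-204, a retained-intron transcript of 3262 nt, at 0.778, 0.683 and 0.621 TPM, whereas its coding transcripts had none. Of the words of Elf5-204, 2.17% occur in 937 other genes, all within bases 1549 to 1708, and the part of these words in the counts was not tested. Pax6 had 11.9, 9.00 and 11.0 kallisto-style counts and 1.34, 0.806 and 1.45 TPM, of which Pax6-214, a transcript of 528 nt, took 81.4 ± 15.7%. Pax6 thus reached 1 TPM in replicates 1 and 3 of the kallisto-style tables, against at most 0.36 TPM in the RSEM-style ones. Gata3 had 7.38, 5.51 and 12.4 kallisto-style counts, all on Gata3-201, against 1 RSEM-style count in all. The 8 markers expressed in the RSEM-style tables were those expressed in the kallisto-style ones, where 52.7% of protein-coding genes were expressed, and 28 of 33 markers kept their class.

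Exons of 9 markers overlapped a gene on the opposite strand, and no source used here states whether strand was used in counting. The opposite-strand genes held at most 2 RSEM-style and 5 kallisto-style counts in a library, the highest being Gm10558 opposite Map2. The remaining 24 markers overlapped no exon of another gene.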

How the data were processed

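Gene and transcript tables of 3 total RNA-seq libraries were analysed, made on mm10 and annotation M21 of GENCODE per the notes deposited with the libraries. The authors made the estimated counts from transcriptome alignments (RSEM-style) or from the reads (kallisto-style) and deposited them without normalization, per the file headers and those notes. The deposited TPM values were scaled over all features of a library, spike-ins included. Quantifier versions and strand options were not given in the sources used here. Gene identity came from the identifiers of the kallisto-style tables, whose values were summed per gene. Spike-ins and other rows without an Ensembl gene (26345 in all) stayed out of library sizes and tests.

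The members and lists were chosen with earlier results of these data known. Counts were rounded and tested with edgeR 4.0.16 after filterByExpr and TMM: the dispersion of each gene in an intercept-only quasi-likelihood fit was set against the trended prior. A chi-square test against Poisson measured spread beyond counting noise, on the same genes. The quantifications were compared with limma 3.58.1 on within-library differences of log2(TPM + 1) for features that reached 1 TPM by either quantification in every library; such differences understate changes of low genes. Benjamini-Hochberg adjustment ran over all features tested, at 0.05. Values by library are given for expressed markers, for low ones with a mean TPM of at least 0.3 and for those whose class differed between quantifications; other markers named by library and Synb were chosen after their values were seen. Some genes of the further lists are not reported here by name. Words of 31 bases were compared over all M21 transcripts. R 4.3.3, DESeq2 1.42.0 (size factors), Python 3.11.15, numpy 2.4.6, pandas 2.3.3 and scipy 1.17.1 were used, and the scripts were tested on simulated data. Alternatives were other thresholds, scalings, filters and pseudocounts, the other quantification, and leaving out each replicate.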

Additional observations from a re-analysis of the deposited data

How the results depend on the processing

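The 8 expressed markers numbered 8 with each replicate left out, with a threshold of 0.5 TPM and in the kallisto-style tables, and 4 at 2 TPM (1 of trophoblast and 0 of endoderm). Markers at zero numbered 10, against 5 in the kallisto-style tables and 10 to 12 with a replicate left out. Of 96 counts of markers by lineage and class under the alternatives, 88 stayed within 1.5 times the reported count and 8 moved. The TPM threshold does not enter the zero class, so other thresholds could not move the numbers at zero. The moves came at 2 TPM, in the kallisto-style tables and with replicate 1 or 3 left out. Of 46 values of single markers, 41 kept their call or stayed within 1 SD between libraries and 5 moved, namely the kallisto-style means of Gsc (6.66), Gata4 (1.36), Ascl2 (2.91) and Krt7 (6.76 TPM) and that of Map2 without transcripts under 1000 nt (2.26 TPM). For these moves the cause was not tested. A mean with 1 of 3 libraries left out cannot move by 1 SD, so the agreement of those means was fixed in advance. Likewise, Eomes, Gsc, Gata4, Dab2 and Krt7 held no RSEM-style TPM on transcripts under 1000 nt, so leaving these out could not move them.

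Genes called variable numbered 5, against 2 with ERCC scaling, 34 without the filter, 8 with limma-voom, 16 with kallisto-style counts and 7 to 14 with a replicate left out; 0 markers were among them in any of these. Genes beyond counting noise numbered 1656, against 2800 with kallisto-style counts and 27 (replicate 1 left out) to 1471 over the libraries left out, and 0 markers were among them. Without the minimum difference, 11478 of 14790 genes and 17807 of 28903 transcripts differed between the quantifications. Among them were 4 of the 8 marker genes tested (Gsc, Gata4, Ascl2 and Krt7) and 3 of the 5 marker transcripts. With a replicate left out 1 to 2 marker genes and 1 to 2 marker transcripts were called. The most were called without replicate 2, where Pax6 and Pax6-214 joined Krt7 and Krt7-201. There 2 of 9 marker genes and 2 of 7 marker transcripts were called, against 2136 of 15193 genes and 5375 of 31148 transcripts. No replicate pairing across groups exists, since the libraries form 1 group; the quantifications were compared within each library. Low markers rest on few counts, so depth limits any statement on them.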

Other observations

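Synb, which encodes the placental fusion protein syncytin-B and belongs to the further trophoblast list, had 2, 3 and 5 estimated counts in the RSEM-style tables of replicates 1, 2 and 3 and 855.3, 861.5 and 962.0 in the kallisto-style ones. Its level was 0.117 ± 0.0503 TPM (SD, n = 3) in the former and 14.8 ± 0.611 TPM in the latter, which would place it above all 33 markers. Syna, which encodes syncytin-A, had 0 counts in both. Synb was the gene of that list whose class changed from low to expressed, and it was chosen after its values were seen. The cause of the difference was not tested.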
